A study of Drosophila melanogaster with 6 samples.

Results

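The genes described here encode 4 subunits of the proteasome regulatory particle of Drosophila melanogaster, Rpt3, Rpn2, Rpn11 and Rpn3. They were chosen from the authors' deposited table of differences between the DHR96 mutant and Canton S, as the rows whose ontology terms contain the word proteasome: 4 of 260 listed probe sets, each the single listed probe set of its gene, of 18769 probe sets tested on the arrays. Total RNA came from whole adult flies of the wild-type strain Canton S (3 arrays) and from whole adults labelled DHR96 mutant (3 arrays), all aged 7 days on standard Bloomington food. DHR96, now named Hr96, is a nuclear receptor, and the series calls the Canton S controls genetically matched. The labels give neither the allele nor the sex nor how many animals made up a sample, and nothing in them says that the 3 samples of a group were separate collections.

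The proteasome degrades proteins that carry a chain of ubiquitin. Its proteolytic sites lie inside a barrel-shaped core particle, and the regulatory particle that caps the core binds the ubiquitylated protein, removes the ubiquitin, unfolds the chain and feeds it into the core. The regulatory particle has a base, which holds a ring of ATPases and large scaffold subunits, and a lid, which holds the deubiquitylating subunit. The proteasome is present in all cells, so RNA of whole animals mixes its transcripts from every tissue. In such RNA a change in the share of a cell type and a change in RNA per cell cannot be told apart.

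The 6 arrays had medians of 470.4 to 484.2 on the linear intensity scale. The probe set of Hr96 itself read 498 to 546 on the Canton S arrays and 928 to 985 on the arrays labelled DHR96 mutant. It was thus not lower in the mutant, and with the allele and the probe set's place relative to it not known here, it does not check the labels. The poly-A spike-in control Dap, a bacterial transcript added to the RNA before labelling, read 473 on DHR96 mutant replicate 2 and 519 on replicate 3, against 1217 on DHR96 mutant replicate 1 and 1007 to 1208 on the Canton S arrays. Those 2 arrays thus stand apart from the other 4 in labelling controls, and values without them are given beside the results that rest on them.

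All 4 subunit genes read higher on each of the 3 arrays labelled DHR96 mutant than on any Canton S array, by 1.302-fold to 1.327-fold in the means. These differences took part in the choice of the genes, since the authors selected their table on this same contrast, so they are given as a description and not as a test. The base ATPase and the base scaffold, the deubiquitylating subunit and the other lid subunit differed by nearly the same amount. The authors' table lists no fold under 1.301 as higher, so a subunit with a smaller rise could not be among the 4. Of the 180 probe sets listed as higher, 22 had folds in this range, the 4 included.

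Rpt3 (CG16916) encodes a base ATPase, one of the ring that unfolds substrates and drives them into the core. Its normalized intensity was 2909, 2626 and 2578 on Canton S replicates 1, 2 and 3, and 3268, 3594 and 3796 on DHR96 mutant replicates 1, 2 and 3. The groups did not overlap, with Canton S replicate 1 the highest control and DHR96 mutant replicate 1 the lowest mutant array. The means were 2704 ± 179 and 3552 ± 267 (SD, n = 3 each), a log2 difference of 0.39 (SE 0.0657).

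Rpn2 (CG11888) encodes a large scaffold subunit of the base. It read 3221, 3001 and 2903 on Canton S replicates 1, 2 and 3, and 3737, 4188 and 4158 on DHR96 mutant replicates 1, 2 and 3. The lowest mutant array again was replicate 1, and it stood 1.16-fold above the highest control, the widest gap among the 4 genes. The means were 3042 ± 163 and 4028 ± 252 (SD, n = 3 each), a log2 difference of 0.40 (SE 0.0564).

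Rpn11 (CG18174) encodes the metalloprotease of the lid that cuts ubiquitin chains from substrates. It read 3350, 3027 and 2972 on Canton S replicates 1, 2 and 3, and 3795, 4213 and 4398 on DHR96 mutant replicates 1, 2 and 3. The groups did not overlap here either, and the lowest mutant value was 1.13-fold above the highest control. The means were 3116 ± 204 and 4135 ± 309 (SD, n = 3 each), a log2 difference of 0.41 (SE 0.0653).

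Rpn3 (CG42641, listed in the authors' table under its former names CG10484 and Dox-A2) encodes a scaffold subunit of the lid. It read 2746, 2429 and 2406 on Canton S replicates 1, 2 and 3, and 3024, 3321 and 3525 on DHR96 mutant replicates 1, 2 and 3. The gap between the groups was the narrowest of the 4 genes, with the lowest mutant value 1.10-fold above the highest control. The means were 2527 ± 190 and 3290 ± 251 (SD, n = 3 each), a log2 difference of 0.38 (SE 0.0695).

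**Figure D1:**
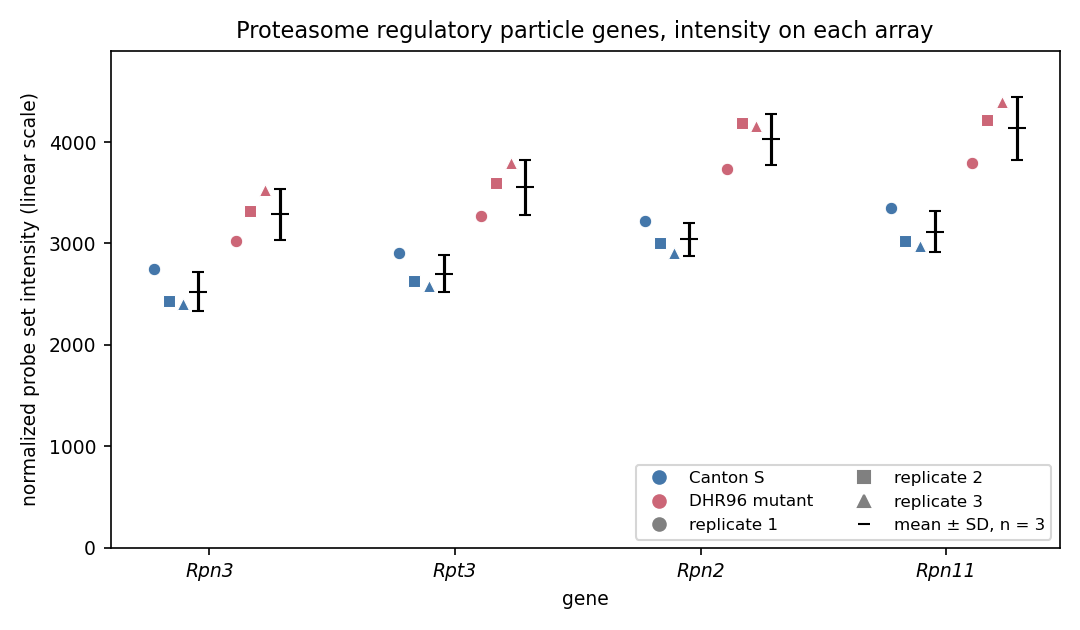
Normalized probe set intensity (linear scale, from 0) of Rpn3, Rpt3, Rpn2 and Rpn11 on each of the 6 arrays, with the strain in colour and the replicate number as the symbol; black bars are the mean ± SD of 3 arrays. For each gene the 3 DHR96 mutant arrays lie above the 3 Canton S arrays, and replicate 1 of each strain is the array nearest to the other strain. Intensities of different probe sets do not rank the genes by abundance.

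The median log2 difference of the 4 genes was 0.40, against -0.0015 over all 18769 probe sets, whose median size of difference was 0.0673. Groups that do not overlap with the mutant higher were found for 2613 probe sets, or 13.9% of those tested, and for 4 of 4 subunit genes. At a limma adjusted p under 0.05, 1306 probe sets passed, or 6.96% of those tested. Of these, 617 had a higher level in the mutant, or 3.29% of those tested, and they include all 4 subunit genes. After quantile normalization 630 were higher and 463 lower, against 617 higher and 689 lower with the values as deposited. Because the contrast was used to choose the genes, nothing is read from these shares. The number of the 4 past that threshold was 2 without Canton S replicate 2, where 803 probe sets passed in all, and 1 without Canton S replicate 3, where 494 did. It was 3 without DHR96 mutant replicate 2 (587 in all) and 2 without DHR96 mutant replicate 3 (426 in all). It stayed at 4 without Canton S replicate 1 (287 in all) or DHR96 mutant replicate 1 (450 in all).

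**Figure D2:**
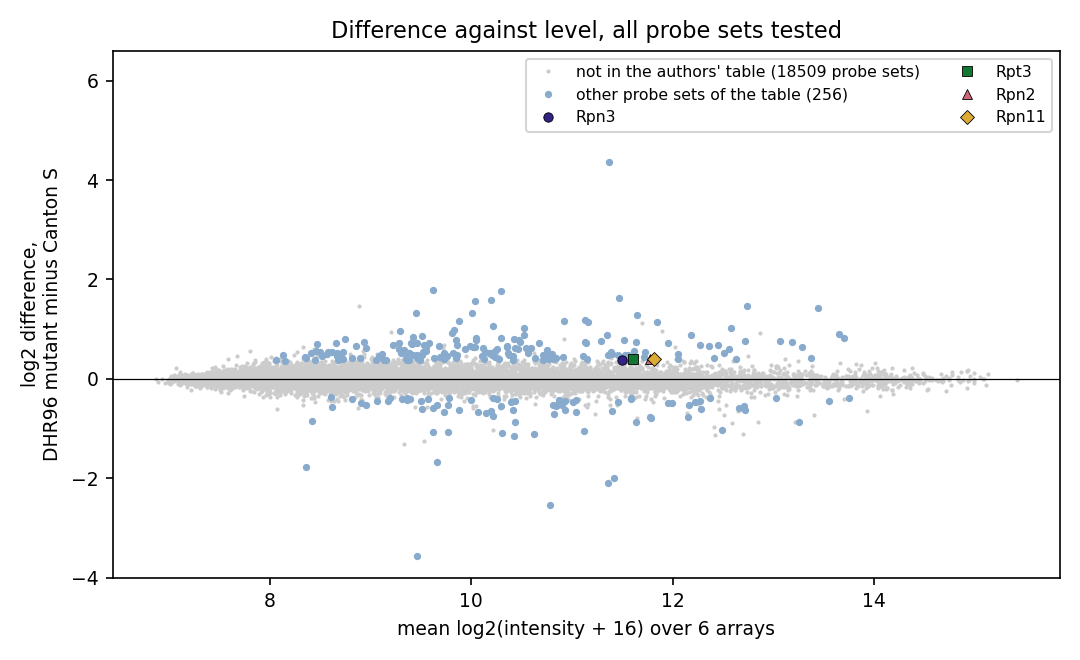
Log2 difference (DHR96 mutant minus Canton S) against mean log2(intensity + 16) over 6 arrays for the 18769 probe sets tested, with the 260 of the authors' table in blue or as symbols. The 4 subunit genes sit side by side at differences of 0.38 to 0.41, near the inner edge of the listed probe sets.

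The 4 genes lay close to the fold at which the authors' table begins. The smallest fold that the authors' deposited table lists as higher is 1.301, and it gives Rpn3 a fold of 1.302, Rpt3 1.314, Rpn2 1.324 and Rpn11 1.327. Ranked from the smallest fold among the 180 probe sets that the authors' deposited table lists as higher, Rpn3 was number 2, Rpt3 number 10, Rpn2 number 19 and Rpn11 number 23. The q-values in the authors' deposited table were 0.649% for Rpn2, 1.01% for Rpn11 and 1.39% for both Rpt3 and Rpn3, under the largest listed q-value of 2.18%. Just outside, the nearest unlisted probe sets had mutant over Canton S ratios of 1.299 and 1.298. In all, 358 unlisted probe sets had a ratio from 1.2 up to 1.3, and 95 unlisted ones had a ratio of 1.3 or more. These unlisted probe sets carry no gene name here, so whether they hold further subunits was not analysed here.

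Within each strain the 4 genes also deviated together, which the difference between the strain means does not fix. On Canton S replicate 1 all 4 stood above their Canton S mean, by 0.083 to 0.12 on the log2 scale, and on Canton S replicate 3 all 4 stood below it, at -0.068 to -0.065. On DHR96 mutant replicate 1 all 4 stood below their mutant mean, at -0.12 to -0.11. They stood above it on replicate 2, by 0.016 to 0.058, and on replicate 3, by 0.048 to 0.10. Rpn2 departed most from the others: it was highest on DHR96 mutant replicate 2, while Rpt3, Rpn11 and Rpn3 were highest on replicate 3.

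The likeness of the profiles was measured as the root mean square difference between log2(intensity + 16) values over the 6 arrays, each gene centred on its own mean. Between pairs of the 4 genes it ran from 0.00907, for Rpt3 and Rpn11, to 0.0376, for Rpn3 and Rpn2. Of the 18768 other probe sets on the array, Rpn11 was the nearest to Rpt3 and Rpt3 the nearest to Rpn11. Rpt3 was also the nearest to Rpn3, and Rpn11 the nearest to Rpn2. The farthest of these pairs, Rpn2 as seen from Rpn3, was number 9 among the 18768. The difference between strains, on which the genes were chosen, takes part in these ranks.

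With each gene centred on its strain means instead, so that the mean difference between strains takes no part, Rpt3 and Rpn11 remained each other's nearest probe set among 18768, at 0.00529. Rpt3 remained the nearest to Rpn3, at 0.00867. Rpn2 followed less closely: seen from it, Rpn11 was number 33, Rpt3 number 70 and Rpn3 number 180. Over the 4 arrays left without DHR96 mutant replicates 2 and 3, each gene was centred on its own mean over those 4. The difference between strains, on which the genes were chosen, thus does take part in that comparison. There Rpt3 and Rpn11 were each other's nearest, and the farthest pair, Rpn3 as seen from Rpn2, was number 31. These ranks describe 6 arrays with 3 in each strain and share whatever the arrays share, so no test was made of them.

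**Figure D3:**
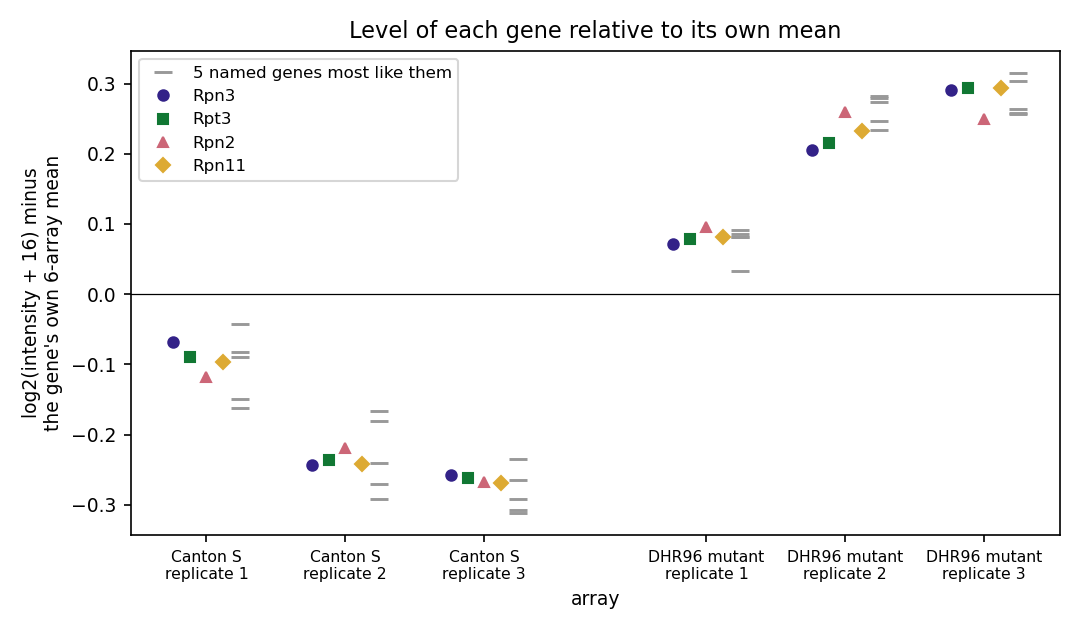
Log2(intensity + 16) of each gene minus its own mean over 6 arrays, by array, for Rpn3, Rpt3, Rpn2 and Rpn11 (coloured symbols) and the 5 named genes most like them (grey bars). The 4 subunit genes lie within 0.012 of each other on Canton S replicate 3 and within 0.054 on DHR96 mutant replicate 2, the narrowest and the widest spread of the 6 arrays.

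The arrays on which the subunit genes read highest were the 2 that the spike-in control set apart. Over the Canton S mean, DHR96 mutant replicate 1 alone stood 1.197-fold higher for Rpn3, 1.208-fold for Rpt3, 1.229-fold for Rpn2 and 1.218-fold for Rpn11. The mean of DHR96 mutant replicates 2 and 3 stood 1.35-fold, 1.37-fold, 1.37-fold and 1.38-fold higher for the same genes. In the fit of replicate 1 alone against the 3 Canton S arrays, the log2 differences were 0.26 for Rpn3, 0.27 for Rpt3, 0.30 for Rpn2 and 0.28 for Rpn11. With 1 mutant array left in that fit, only the sizes of the differences are given. The ratio of 3' to 5' control probe sets is a sign of RNA quality. For GAPDH it was 1.353, 1.424 and 1.358 on DHR96 mutant replicates 1, 2 and 3, all above the 1.299 to 1.349 of the Canton S arrays. The strains thus did not overlap in this control either, though the gap was narrow, with 1.353 against 1.349. For actin it was 2.46, 2.61 and 2.31 on the same mutant arrays and 2.23 to 2.37 on Canton S, and for eIF-4a 2.41, 2.70 and 2.27 against 2.21 to 2.51, and in both the strains overlapped. The part of the labelling controls and of RNA quality in the differences was not tested.

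**Figure D4:**
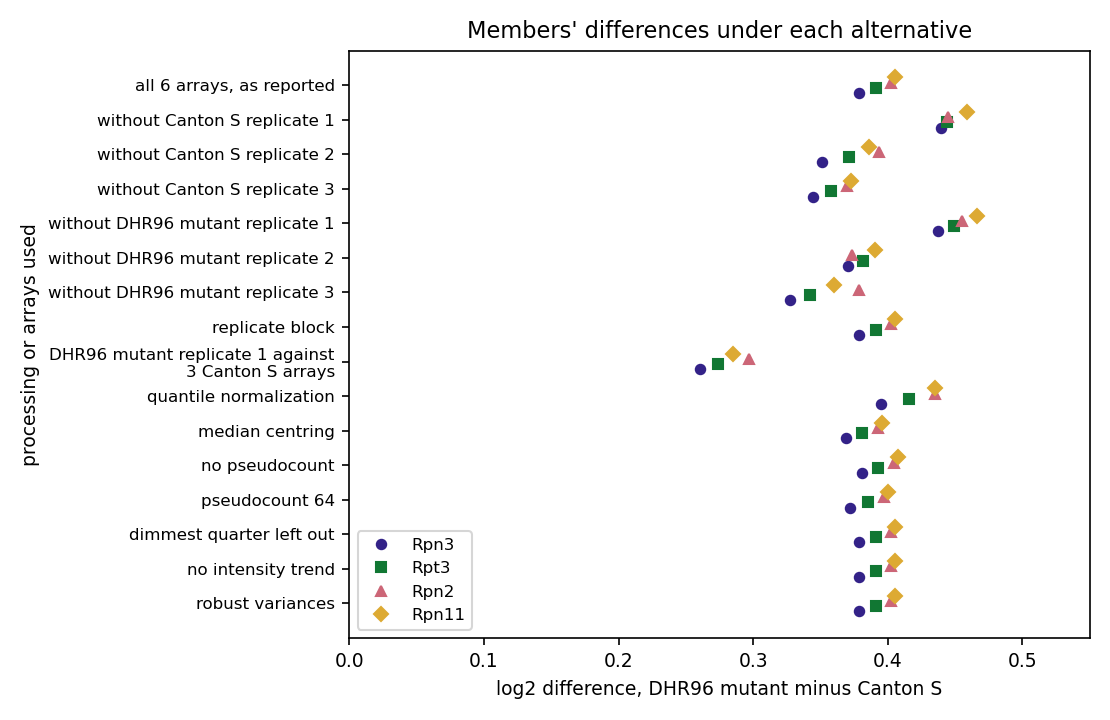
Log2 difference (DHR96 mutant minus Canton S) of Rpn3, Rpt3, Rpn2 and Rpn11 with the arrays or the processing changed one at a time; the axis starts at 0. The values lie between 0.33 and 0.47 except with DHR96 mutant replicate 1 as the lone mutant array, where they lie between 0.26 and 0.30.

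The spread within a strain was larger for these genes than for most probe sets. Their pooled within-strain SD on the log2 scale was 0.084 for Rpn2, 0.101 for Rpt3 and Rpn11, and 0.108 for Rpn3. The median over all probe sets was 0.0609, and it was 0.0486 over the 1191 probe sets within 0.5 log2 units of the 4 genes' mean level. The 4 probe sets ranked between the 89.3 and 94.7 percentile of intensity on every array, well clear of the lowest values of 97.2 to 103.4, so low signal does not limit them.

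Of the other genes of the pathway, few could be followed. The base and lid have 19 genes in the lists used here, of which the 4 described are in the authors' deposited table, all higher. None of the 14 core particle genes, the alpha and beta subunits, is in that table, nor is any of the 14 testis-specific subunit genes. The list of activators, assembly factors and regulators, which holds the proteasome regulator gene cnc and its inhibitor Keap1 among 11, likewise had 0 genes in the table, with 1 of the 11, PA200, not matched to the gene table and so not looked up. Absence from the table shows only that a gene did not meet the authors' selection, since the remaining probe sets carry no names here.

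The ubiquitin system list gave 1 of 11 genes, Npl4, which encodes a cofactor of the ATPase TER94 in drawing ubiquitylated proteins out of complexes and membranes. Npl4, chosen by the authors on the same contrast, went the other way from the subunit genes. It read 8351, 7726 and 8127 on Canton S replicates 1, 2 and 3, and 5661, 5546 and 5322 on DHR96 mutant replicates 1, 2 and 3. The log2 difference was -0.55 (SE 0.0392), and DHR96 mutant replicate 1 alone gave -0.51.

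The ontology terms of the 4 genes overlapped in part. In the authors' deposited table all 4 carry the terms proteolysis and endopeptidase activity, and no other listed probe set carries the term for the regulatory particle. Rpt3 and Rpn2 carry the term for the base and Rpn11 that for the lid. Rpn3 shows no term for either, but the component cells of all 4 end at 255 characters and may be cut. Rpn3 alone carries the term phenol metabolic process, which goes with its former name: Dox-A2 was named for a diphenol oxidase.

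Most of the other genes with the proteolysis term went the other way. Of the 15 other listed probe sets with the term, 5 had a higher and 10 a lower level in the mutant, with a median log2 difference of -0.62. The higher ones include Lsp2, at 1.63, and Acp76A, at 0.43, which are also counted as tissue markers below. Among all 260 probe sets of the authors' deposited table, 180 are higher and 80 lower, or 69.2% higher, against 33.3% of these 15. With DHR96 mutant replicate 1 alone against Canton S, 5 were higher and 10 lower as well, with a median of -0.52. The lower ones include Jon99Fi, Jon99Ci, Jon65Ai and Jon65Aii, of the Jonah family of gut serine proteases, at -1.03, -0.62, -0.79 and -0.77. The nearest in size to the subunit genes on the higher side were Nna1, a carboxypeptidase gene, at 0.40 and AdamTS-A, a secreted metalloprotease gene, at 0.42. With DHR96 mutant replicate 1 alone these were 0.25 and 0.34. The size of the difference was larger than that of every subunit gene for 14 of the 15. No test of direction was made, as the authors selected the listed genes on these arrays.

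**Figure D5:**
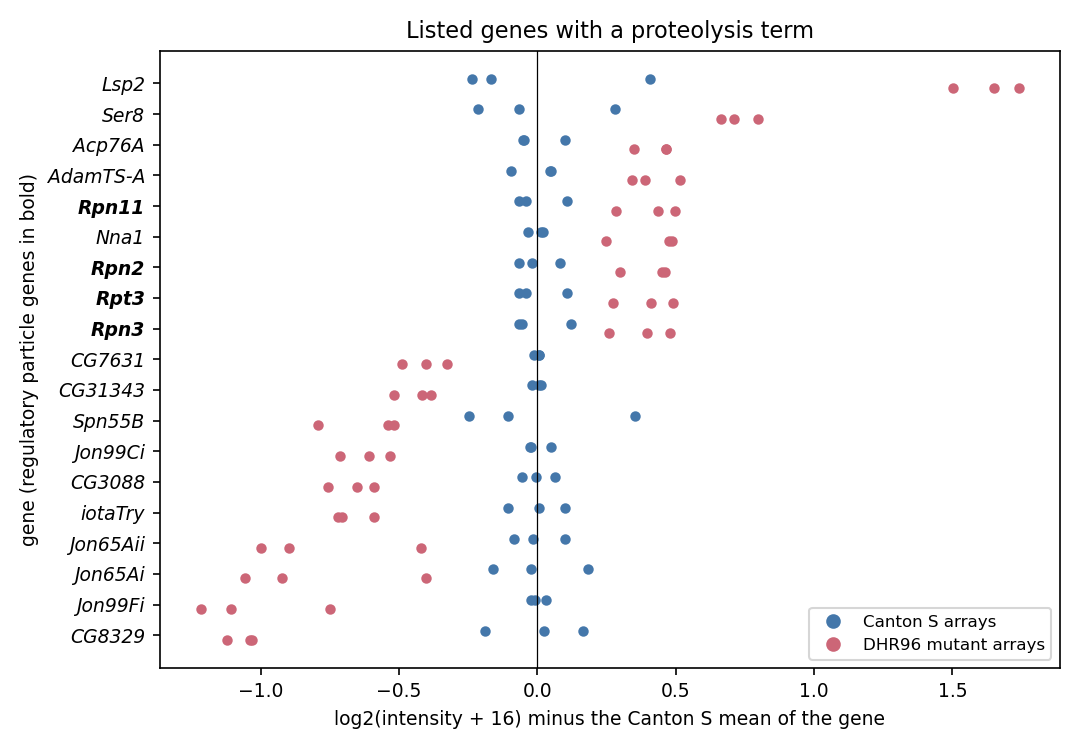
Log2(intensity + 16) minus the Canton S mean of the gene, on each Canton S (blue) and DHR96 mutant (red) array, for the 19 listed probe sets with a proteolysis term; the regulatory particle genes are in bold. The 4 subunit genes lie among 9 genes higher in the mutant, with Nna1 between Rpn2 and Rpn11, and 10 are lower.

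The named genes most like the 4 subunit genes were taken from the 246 other genes that the table names, by the same root mean square difference to the mean profile of the 4. The closest was Ho, which encodes heme oxygenase, at 0.0281. It read 3011, 2826 and 2779 on Canton S replicates 1, 2 and 3, and 3559, 3964 and 4160 on DHR96 mutant replicates 1, 2 and 3, so its arrays fall in the order of those of Rpt3. Next came Jhbp7 at 0.0354, the sugar transporter gene Slc45-1 at 0.0388, spz3, of the family of the Toll ligand spz, at 0.0394, and CG15506 at 0.0442. Their log2 differences were 0.44 for Ho, 0.44 for Jhbp7, 0.42 for Slc45-1, 0.38 for spz3 and 0.38 for CG15506. With DHR96 mutant replicate 1 alone they were 0.31, 0.30, 0.29, 0.28 and 0.22. Over all probe sets, 15 others lay within 0.05 of the mean profile, of which 6 are in the authors' deposited table and the rest carry no name here. Centred on strain means, 375 others lay within 0.05, of which 16 are in that table.

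None of the 4 genes lies next to another gene named in the authors' deposited table, in the gene order of Release 6 of the fly genome. The 2 listed probe sets without a matched gene and the 3 that name several genes were not placed. The usual spacing of listed genes was not computed, so nothing is read from these distances. The nearest named gene of the table stood 18 places away among protein-coding genes for Rpt3, 52 for Rpn2, 68 for Rpn3 and 108 for Rpn11. No protein-coding gene overlaps any of the 4 in that annotation.

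Markers of tissues that whole flies contain were counted in the same table. Of 42 marker genes, 3 are listed, all higher: Lsp2 and Fbp1, of 5 fat body and yolk genes, and Acp76A, of 4 male accessory gland genes. Over the array, 260 of 18769 probe sets, or 1.39%, are listed. The listed markers include 0 of 12 ovary and eggshell genes, 0 of 7 germline and 0 of 7 testis genes, 0 of 4 muscle and 0 of 3 neuron genes. Lsp2 read 1346 to 2112 on the Canton S arrays and 4535 to 5348 on the arrays labelled DHR96 mutant, and Fbp1 570 to 637 and 1337 to 2338. Acp76A read 8798 to 9778 and 11614 to 12601. With DHR96 mutant replicate 1 alone the log2 differences of Lsp2, Fbp1 and Acp76A were 1.503, 1.15 and 0.35, against 1.63, 1.56 and 0.43 with all arrays. Their part in the differences of the proteasome genes was not tested.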

How the data were processed

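Intensities of each probe set were deposited on a linear scale, and the authors had normalized them between arrays, as the nearly equal array medians show. Per the submitters' processing notes the tool was MAS5, with no version or role given, so the background correction and the summary method are not known. Per the file headers, the authors' table holds a SAM score with its denominator, a numerator, a q-value in percent and a fold with its sign. The deposited numerator equalled the difference of mean log2 values, mutant minus Canton S, within 5.68e-10, and the deposited fold the ratio of mean intensities.

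The 18952 probe sets include 183 controls of the manufacturer, which were left out. limma 3.58.1 in R 4.3.3 (lmFit, eBayes with intensity trend) was fitted to log2(intensity + 16) of the other 18769 on all 6 arrays with group as the only term and no filter. Tests were two-sided, adjusted by Benjamini-Hochberg over all 18769, with a threshold of 0.05. Log2 differences are mutant minus Canton S on that scale, and each SE is the moderated SE of that fit. The procedure was tested on simulated data with independent noise for each probe set, so probe sets that deviate together were not covered. The small number of arrays limits the precision, and the p-values rest on a spread between samples that may be technical.

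Of 260 listed probe sets, 255 were matched to 1 gene through their CG number and the gene table of Release 6, 2 were not matched and 3 name several genes. The members and lists were chosen with earlier results of these data known. Genes named are the members, genes of the fixed lists that the authors' table names (at most 4 a list), and the 5 most like the members; others were chosen after their values were seen. A planned search for promoter and protein motifs was not run, as no sequences were used here. No coordinates are printed, since the build of the files is not stated in the sources read. Alternatives were each array left out, DHR96 mutant replicates 2 and 3 left out together, the replicate number as a block, other scalings and pseudocounts, a filter on dim probe sets and other variance models. Likeness over 4 arrays, and the values of other genes with DHR96 mutant replicate 1 alone, were added after seeing the data.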

Additional observations from a re-analysis of the deposited data

How the results depend on the processing

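The log2 differences of Rpn3, Rpt3, Rpn2 and Rpn11 were positive under all 15 alternatives. Groups that do not overlap fix that direction when arrays are left out or the pseudocount is changed. The replicate block, the filter on dim probe sets and the other variance models cannot change these differences. Leaving out 1 array in turn gave 0.33 to 0.44 for Rpn3, 0.34 to 0.45 for Rpt3, 0.37 to 0.46 for Rpn2, 0.36 to 0.47 for Rpn11 and 0.35 to 0.45 for their median. With DHR96 mutant replicate 1 alone against Canton S they were 0.26, 0.27, 0.30 and 0.28, with a median of 0.28, each lower by more than the within-strain SD. The number of the 4 past the threshold ran from 1 to 4 with an array left out. Over all probe sets, 1306 passed, against 287 to 803 with an array left out, 62 with DHR96 mutant replicate 1 alone and 813 with no intensity trend, where all 4 genes still passed; fewer samples enter the first 2, and the cause of the last was not tested. Deviations of same-numbered arrays correlated at 0.19, -0.22 and -0.24 for numbers 1, 2 and 3, against -0.21 to 0.30 for arrays of different number. Deviations from a mean of 3 arrays cancel out within each strain, so these values cannot settle whether the numbers pair the samples. With the replicate block 240 probe sets passed, and 0 of the 4 genes did by limma's adjusted p. At limma's unadjusted p under 0.05 all 4 genes passed, as did 4101 of the 18769 probe sets. The genes were chosen on this same contrast, so nothing is read from their passing. The median difference of the 4 genes was 0.40 with the block.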
